A study of Mus musculus with 8 samples.

Results

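The members described here are the Foxk1 binding peaks around 5 genes of the circadian clock, Per1, Per2, Nr1d1, Dbp and Bhlhe40, in mouse embryonic fibroblasts (MEFs), connective-tissue cells cultured from embryos. Members were all peaks whose summit lay in a fixed mm9 window around each gene: chromosome 11 from 68.87 to 68.96 Mb for Per1, chromosome 1 from 93.28 to 93.4 Mb for Per2, chromosome 11 from 98.58 to 98.68 Mb for Nr1d1, chromosome 7 from 52.92 to 53 Mb for Dbp and chromosome 6 from 108.56 to 108.68 Mb for Bhlhe40. These windows held 45 of the 28933 deposited peaks, or 0.156%. The genes were selected on these peaks and their deposited signal values, Per1 for holding 1 of the strongest, so all values below are descriptions without a test. Foxk1 is a forkhead transcription factor, one of a family of proteins whose DNA-binding domain folds as a winged helix. The series comprised 3 chromatin libraries precipitated with a Foxk1 antibody, 3 with control IgG and 2 of input chromatin without antibody. The cells had no treatment, and neither strain, genotype nor time of day is given in the labels. The peak list gives 1 value per peak for Foxk1 against input, with no value per library or for IgG. Replicate error, read depth and enrichment not specific to the Foxk1 antibody therefore could not be assessed for any value below.

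The circadian clock is a feedback loop of transcription that runs in most mammalian cells, fibroblasts included. CLOCK and BMAL1 bind E-box letters in the promoters of clock genes and switch them on, and the Per and Cry proteins made from these genes return to the nucleus and inhibit CLOCK and BMAL1. Nr1d1 encodes REV-ERBα, a nuclear receptor that represses the BMAL1 gene, Dbp encodes an activator of D-box genes, and Bhlhe40 encodes a repressor that competes at E-boxes. Per1 and Per2 are also induced quickly by signals that reset the clock, through the cAMP response element in the case of Per1.

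The promoter sequences of these genes are shown because the strongest peak of the group lay close to the Per1 start as the window definition gives it. Whether either of the 2 Per1 starts printed below is that start was not determined, so their letters cannot be placed beside that peak. They come from RefSeq, build GRCm38.p6, and show the 250 bases before each listed start, from 5′ to 3′ on the strand of the gene. The table matched 3 of the 5 genes, with 2 starts for Per1 and 1 each for Nr1d1 and Dbp. Coordinates of this build were not set against the mm9 peaks, so whether a peak covers any of these bases was not determined. Capitals mark matches to the E-box, the core letters of the ROR element or the core of the cAMP response element. The letters of the GC box and the CCAAT box are left in lower case.
Per1, the first start, chr11:69098699-69098948, plus strand: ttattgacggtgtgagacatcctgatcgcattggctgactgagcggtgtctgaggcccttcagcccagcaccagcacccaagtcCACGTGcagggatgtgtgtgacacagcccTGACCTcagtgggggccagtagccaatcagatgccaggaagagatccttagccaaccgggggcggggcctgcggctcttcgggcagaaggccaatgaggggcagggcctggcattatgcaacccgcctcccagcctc
Per1, the second start, chr11:69099902-69100151, plus strand: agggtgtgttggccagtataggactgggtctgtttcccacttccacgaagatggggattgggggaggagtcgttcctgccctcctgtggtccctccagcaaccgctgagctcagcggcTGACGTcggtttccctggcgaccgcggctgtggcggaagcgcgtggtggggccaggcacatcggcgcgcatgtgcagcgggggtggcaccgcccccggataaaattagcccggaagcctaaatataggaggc
Nr1d1, chr11:98775378-98775627, minus strand: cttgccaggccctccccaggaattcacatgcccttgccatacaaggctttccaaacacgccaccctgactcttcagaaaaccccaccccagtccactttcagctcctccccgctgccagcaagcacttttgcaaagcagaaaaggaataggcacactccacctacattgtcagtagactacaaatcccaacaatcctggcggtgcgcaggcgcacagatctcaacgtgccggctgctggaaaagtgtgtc
Dbp, chr7:45704997-45705246, plus strand: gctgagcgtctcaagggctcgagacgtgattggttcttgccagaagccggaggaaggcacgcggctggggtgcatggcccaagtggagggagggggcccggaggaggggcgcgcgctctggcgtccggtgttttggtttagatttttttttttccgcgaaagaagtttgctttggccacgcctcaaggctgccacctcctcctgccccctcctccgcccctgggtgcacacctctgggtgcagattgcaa

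Letters were searched on both strands. The E-box CACGTG, the site of CLOCK and BMAL1, occurred once, with its first base 166 bases before the first Per1 start, and 6.02% of all 32851 promoters in the table held it. At the same Per1 start, AGGTCA, the core letters of the ROR element that REV-ERB and ROR receptors bind, lay on the opposite strand. These letters lay 137 bases before the start, where the printed strand reads TGACCT. Only the core was searched, without its flanking bases, so whether a full ROR element is present was not determined. The core letters were found in 14% of all promoters. The second Per1 start carried the cAMP response element core TGACGT 132 bases before it, letters present in 6.47% of all promoters. Neither the forkhead letters TGTTTAC (3.17% of all promoters) nor the shorter TGTTTA contained in them (12%) were in these 4 stretches. The same was true of the D-box TTANGTAA (2.06%) and the AP-1 site TGANTCA (6.75%). GC boxes, GGGCGG, were present in 3 of the 4 and in 32.7% of all promoters, and CCAAT in the same 3 and in 33.8%. The Nr1d1 stretch held none of the 9 motifs. The 2 Per1 stretches had a GC content of 62% and 64%, that of Dbp 62.4% and that of Nr1d1 54.8%, against a median of 52.4% over all promoters. A match says only that the letters are there, and their absence concerns these 250 bases alone.

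**Figure D1:**
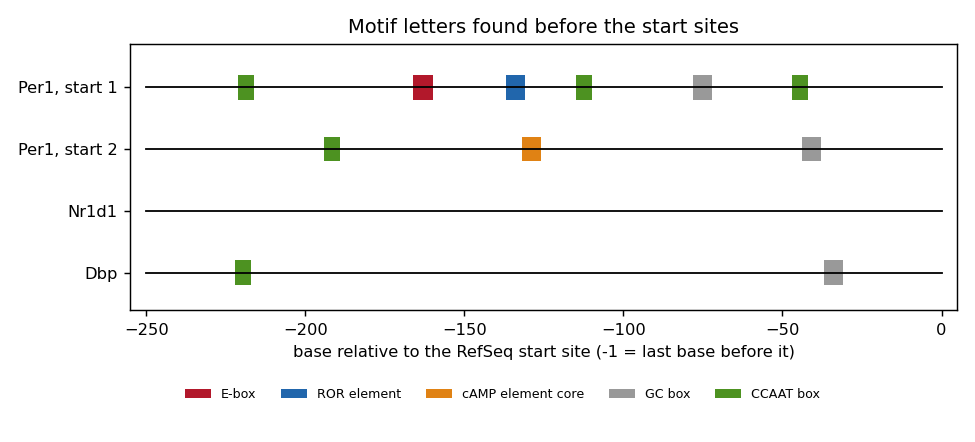
Positions of motif letters in the 250 bases before the RefSeq starts of Per1 (2 starts), Nr1d1 and Dbp, on an axis of bases relative to the start; coloured blocks are exact matches on either strand. The E-box and the core letters of the ROR element lie at the first Per1 start, the cAMP element core at the second, and the Nr1d1 line is empty.

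Of 20 other clock genes listed (such as Clock, Arntl, Cry1, Cry2, Per3, Nr1d2, Tef and Nfil3), 16 had a promoter in the table, with 24 starts. The E-box was found at 5 of these 24 starts (20.8%, beside 6.02% of all promoters), in the 4 genes Bhlhe41, Ciart, Cry1 and Tef. Bhlhe41 is the paralog of Bhlhe40, Cry1 a partner of the Per proteins and Tef a relative of Dbp. The GC box was at 21 of the 24 starts (87.5%, beside 32.7% of all promoters), in 15 of the 16 genes. CCAAT was at 12 starts (50%, beside 33.8%), in 10 genes. The GC content of these 24 stretches was not computed. The core letters of the ROR element were at 3 starts, of Clock, Nfil3 and Nr1d2, a share of 12.5% beside 14% of all promoters. The D-box was at 2, of Per3 and Rorb (8.33%, beside 2.06%), and the forkhead letters TGTTTAC at 1, of Cry1 (4.17%, beside 3.17%). The shorter TGTTTA was at 2, of Cry1 and Rorb (8.33%, beside 12%). The AP-1 site was at 1, of Rorb (4.17%, beside 6.75%), and the cAMP element core at 1, of Hlf (4.17%, beside 6.47%). Peaks at these genes were not counted, since no annotation of the build of the peaks was used here.

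Per1 encodes a core inhibitor of the loop, and its window held the strongest peak of the group. This peak, at chr11:68908138-68908597, had a signal value of 276, which ranked 5 in the list of 28933 and 2 among the 2103 peaks of chromosome 11. The signal value is the score the authors deposited for each peak, on a scale not given in the sources used here. Its summit, the centre of the peak, lay at 68908368, which is 632 bp below the Per1 start as the window definition gives it, rounded to 68.909 Mb. Only 1 peak on chromosome 11 was higher, with a signal value of 296 at chr11:120092739-120093198.

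The strong Per1 peak was followed by a row of 4 weak ones. Their summits lay 907, 1635, 2217 and 2811 bp above it, and the rounding of the start leaves the place of the nearest one relative to it undetermined. Signal values in this row were 17.3, 17.6, 19.9 and 22.9 in the same order, around the list median of 17.8. The row thus held its lowest value next to the strong peak and its highest at the far end. No 2 of these peaks overlapped, as their summits were 582 to 907 bp apart and each peak in the list is 460 bp wide. Above the row, the window was empty, and the next peak on the chromosome lay 177.5 kb beyond the upper edge, with a signal value of 12.9.

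Below the strong peak, an interval of 15.7 kb without peaks separated it from a further group of 6. The outermost of these, at chr11:68872886-68873345, was the second highest of the window with a signal value of 89.1, ranked 609 in the list. The other 5, in order toward Per1, had signal values of 23.8, 33.5, 22.7, 29.1 and 20.7. In the RefSeq gene order (GRCm38.p6), Per1 is flanked by Vamp2, a gene of vesicle fusion, with Tmem107 beyond it, and by Hes7 on the other side. A gene was not assigned to any of these peaks. Over the whole window, 9 of 11 peaks had a signal value at or above the list median, which 50% of all peaks have by definition, and 10 of 11 had a q-value of at most 0.001, as had 51.3% of all peaks.

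**Figure D2:**
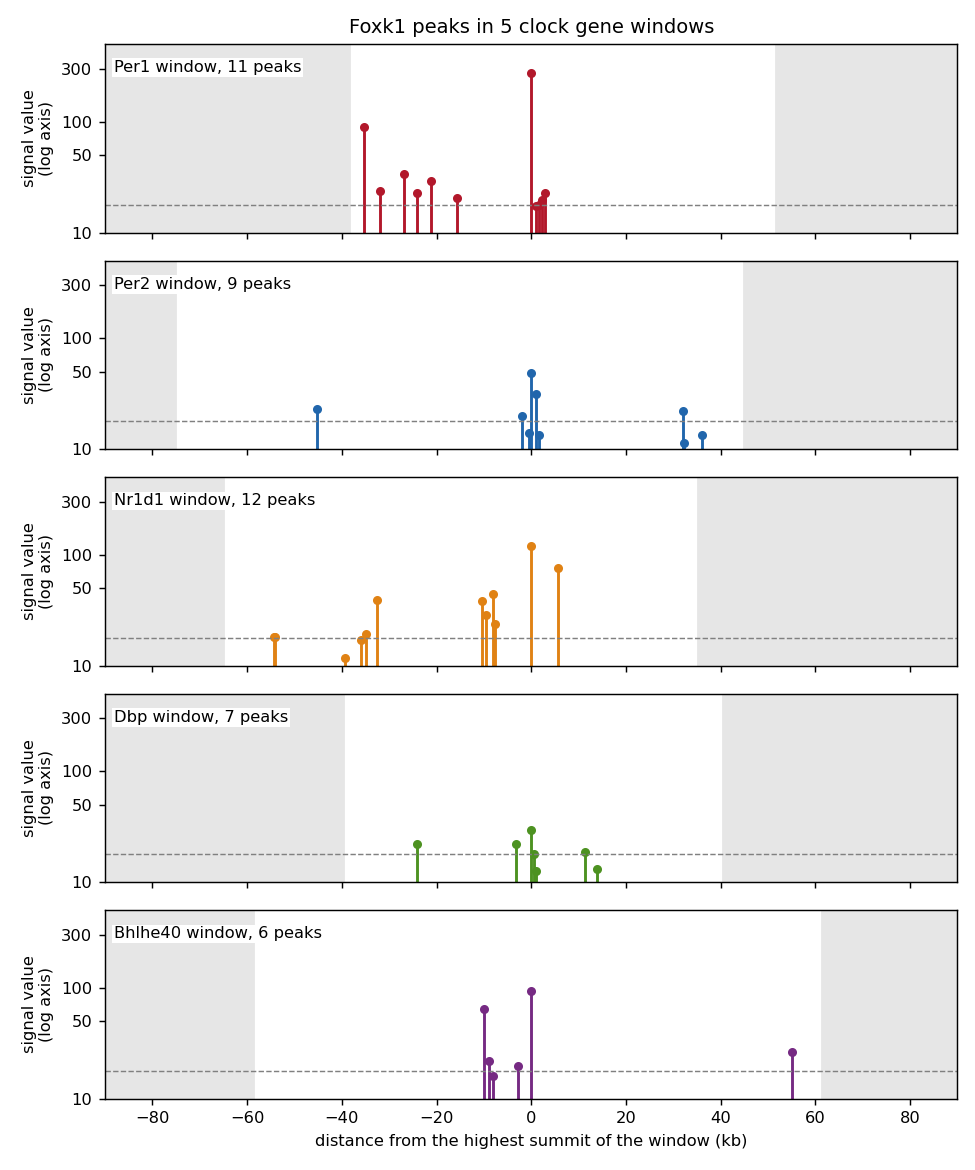
Every Foxk1 peak in the 5 windows, as deposited signal value (log axis) against the distance in kb from the highest summit of that window; the dashed line is the list median of 17.8 and grey areas lie outside the window. Per1 shows a peak of 276 with 4 weak peaks close to it on 1 side, while the highest peaks of Per2 and Dbp stay at 48.3 and 29.3.

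Per2, the paralog of Per1 in the same inhibitory complex, had 9 peaks, none with a signal value of 50 or more. A value of at least 50 was reached by 7.97% of all peaks. The highest Per2 peak, at chr1:93354772-93355231, had a signal value of 48.3 and ranked 2477, so that 8.56% of the list stood at or above it. It sat inside a group of 5 summits within 3.41 kb. From low to high coordinate these had signal values of 19.97, 14.0, 48.3, 31.4 and 13.5. Here the strongest peak had weaker ones on both sides, whereas at Per1 the companions within 5 kb all lay on 1 side.

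The remaining Per2 peaks stood far from this group. A peak with a signal value of 22.8 lay 45.1 kb below the highest summit, and 3 others lay 32.1, 32.3 and 36.1 kb above it, with signal values of 22.0, 11.4 and 13.4. The first 2 of these overlapped by 251 bp, with summits 209 bp apart. The value of 11.4 ranked 28548 in the list, near its end, with a deposited q-value of 0.00955. Per2 lies between Hes6 and Traf3ip1 in the RefSeq gene order.

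Nr1d1, the REV-ERBα gene, had 12 peaks in a window of 100 kb and held the second strongest peak of the group. The Per1 window had 11 in 90 kb, so that the densities were 12 and 12.2 peaks per 100 kb. Its highest peak, at chr11:98644562-98645021, had a signal value of 119.7 and ranked 258. Together with Per1 it made up the 2 of 45 peaks with a signal value of 100 or more, a level reached by 1.47% of all peaks. This peak stood alone within 5 kb. The next one, at chr11:98650138-98650597, lay 5576 bp above it and had a signal value of 75.4.

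Lower signal values at Nr1d1 came in groups. Between 7.56 and 10.4 kb below the highest summit, 4 peaks had signal values of 37.9, 28.6, 44.0 and 23.8. A second group of 4, between 32.5 and 39.4 kb below it, had values of 11.8, 17.1, 19.3 and 39.3, in order of increasing coordinate. A pair with almost equal values, 18.1 and 18.2, overlapped by 144 bp at a distance of 54.1 to 54.4 kb. In the RefSeq annotation Nr1d1 overlaps Thra, the thyroid hormone receptor alpha gene, and is followed by Msl1, so that the window holds more than the clock gene. The deposited q-values did not strictly follow the signal: the peak with a signal value of 37.9 had a q-value of 0.000614, higher than the 0.000512 of the peak with 28.6.

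Dbp, an output gene of the clock, had the lowest median and the lowest maximum of the 5 windows. Its 7 peaks had signal values from 12.6 to 29.3 with a median of 18.6, close to the list median of 17.8. The highest, at chr7:52959294-52959753, ranked 6509, with 22.5% of the list at or above it. It was the only one of the 5 window maxima without the lowest deposited q-value of 0.00014, which 12.3% of all peaks have, and its own was 0.000538. A peak 3157 bp below it had a signal value of 22.2, and 2 peaks 642 and 963 bp above it had 17.8 and 12.6 and overlapped by 139 bp. The other 3 peaks, with signal values of 21.9, 18.6 and 13.2, were 11.3 to 24.0 kb away. Dbp overlaps Sphk2 in the RefSeq annotation and has Car11 on its other side.

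Bhlhe40, the E-box repressor, had 6 peaks in a window of 120 kb, of which 2 had a signal value of at least 50. That count was the lowest of the 5 windows as drawn, as was the density of 5 peaks per 100 kb. With each window widened by its own width on both sides, Bhlhe40 had 15 peaks, more than the 13 of Per2, which was drawn equally wide. Dbp then had 11, but its window was drawn at 80 kb, so the counts of Dbp and Bhlhe40 cover unlike widths. The highest Bhlhe40 peak, at chr6:108618271-108618730, had a signal value of 93.2 and ranked 523. The second, at chr6:108608218-108608677, lay 10.1 kb below it with a signal value of 63.9 and ranked 1322. Between them lay 3 peaks with signal values of 21.8, 15.9 and 19.6. The last peak stood 55.0 kb above the highest summit with a signal value of 26.1. In the RefSeq order the gene lies between Itpr1 and Arl8b.

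Set side by side, the highest peak of each window had a signal value of 276 at Per1, 119.7 at Nr1d1, 93.2 at Bhlhe40, 48.3 at Per2 and 29.3 at Dbp. The order of medians was different. It ran from 26.2 at Nr1d1 to 24.0 at Bhlhe40, 22.9 at Per1, 19.97 at Per2 and 18.6 at Dbp. Per1 therefore led through 1 peak, 187 above the next highest of its window in signal value. Without a replicate spread, it cannot be said which neighbours in either order differ. All 45 peaks had a median signal value of 22.0 against 17.8 for the list, and 21.8 for the 34 peaks outside the Per1 window. A signal value of 50 or more was found in 6 of 45, or 13.3%, beside the 7.97% of all peaks; these were 2 each at Per1, Nr1d1 and Bhlhe40. Chromosome 11, which carries Per1 and Nr1d1, had 9.94% of its peaks at this level.

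**Figure D3:**
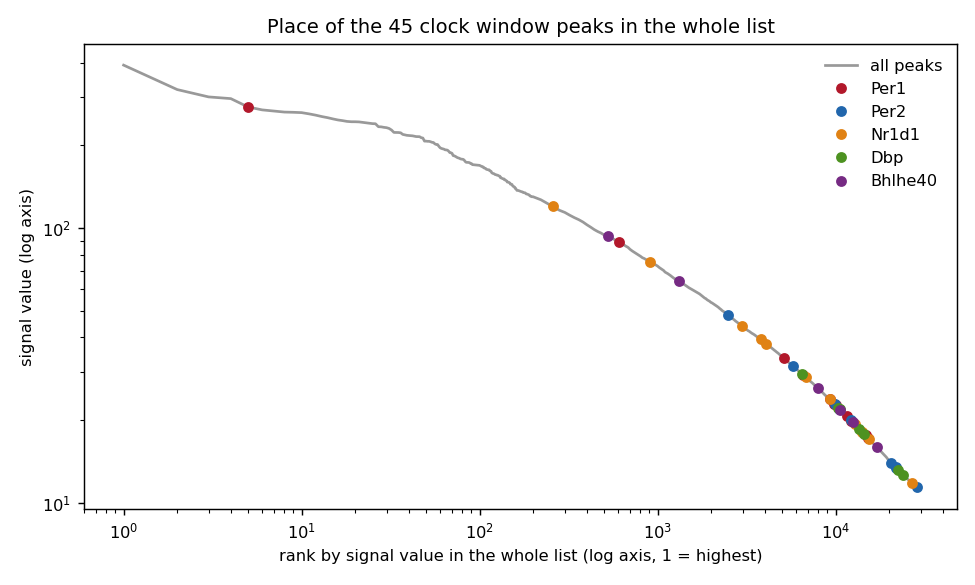
The 45 peaks placed on the curve of all 28933 peaks, with rank on the x axis (log, 1 is the highest) and deposited signal value on the y axis (log). Only Per1 reaches the first 10 ranks, Nr1d1 and Bhlhe40 follow at ranks 258 and 523, and the points then run to rank 28548 at Per2.

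Peak number was set beside that of all windows of the same width, tiled along chromosomes 1 to 19 and X. At least 11 peaks in 90 kb, the Per1 count, were found in 0.215% of 29269 windows, and at least 12 in 100 kb, as at Nr1d1, in 0.148% of 26340. At least 9 peaks in 120 kb, as at Per2, occurred in 1.33% of windows, at least 7 in 80 kb, as at Dbp, in 1.23%, and at least 6 in 120 kb, as at Bhlhe40, in 5.03%. The median tiled window of each width held 0 peaks. A tiled grid cuts through groups of peaks, while these windows were placed around genes with known peaks, so the shares describe the background and nothing more. Among tiled windows with at least 1 peak the shares were higher, from 0.343% for Nr1d1 to 10.7% for Bhlhe40. Within chromosome 7, which has few peaks, 0.105% of 1906 windows held 7 peaks or more, as the Dbp window did. A peak as high as that of Per1 was in 0.0171% of tiled windows of its width, one as high as that of Nr1d1 in 0.957%, that of Bhlhe40 in 2.24%, that of Per2 in 9.31% and that of Dbp in 14.7%. The tiled windows include those over the clock genes, which were selected on these signal values, so these shares too are description only.

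**Figure D4:**
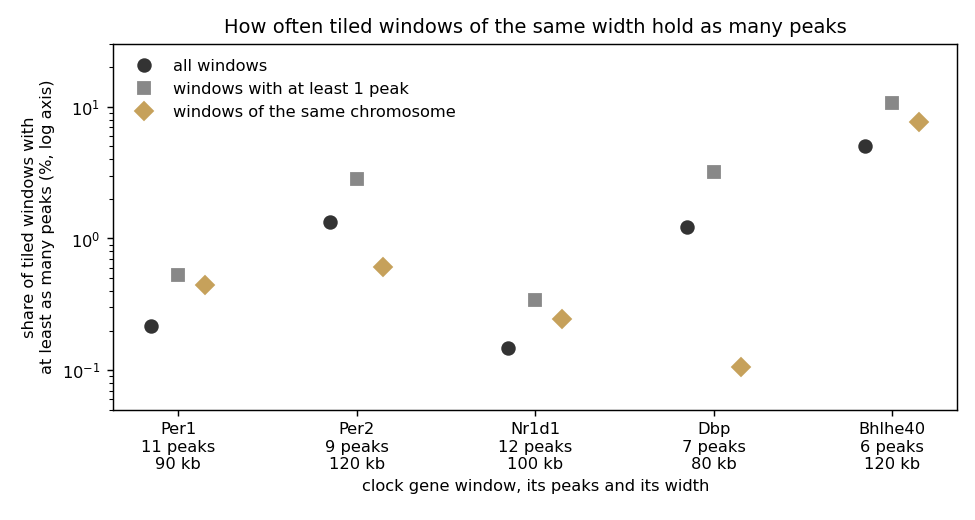
Share of tiled windows of the same width (%, log axis) that hold at least as many peaks as each clock gene window, for all windows (circles), windows with at least 1 peak (squares) and windows of the same chromosome (diamonds). The circles run from 0.148% for Nr1d1 to 5.03% for Bhlhe40.

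Summits were grouped in all 5 windows. These windows were placed around genes with known peaks and held 5 to 12.2 peaks per 100 kb, while the mean tiled window of 100 kb held 1.1. Summits that dense lie close together more often, so the shares below describe the selected windows and nothing more. When summits under 5000 bp apart were joined, 39 of the 45 peaks (86.7%) were in a group of 2 or more, as were 39.6% of all peaks. Groups of 4 or more held 22 of the 45 (48.9%) and 6.28% of all peaks. Such groups occurred at Per1, Per2, Nr1d1 and Dbp, and at Bhlhe40 the largest had 3. The highest peaks of Per1 and Per2 each had 4 other summits within 5000 bp, and that of Dbp had 3. Over the whole list, 1.09% of peaks had 4 or more other summits within this distance, 3.89% had 3 or more, and the median was 0. Among the 426 peaks whose signal value reached 100, which include the highest of Per1 but not those of Per2 and Dbp, 8 (1.88%) had 4 or more. The highest peak of Bhlhe40 had 1 such neighbour and that of Nr1d1 had 0.

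The window edges decided membership, and at Bhlhe40 they left out a strong peak. The last peak inside its upper edge, 6.47 kb from it, had a signal value of 26.1, and the next one, 8.5 kb beyond that edge at a start of 108688273, had 106, more than any peak inside. At the lower edge of Nr1d1, the nearest peak inside had a signal value of 18.1 at 10.4 kb from the edge, and the nearest outside had 54.4 at 9.79 kb from it. The lower edge of Per1 fell between values of 89.1 at 3.12 kb inside and 16.3 at 10.9 kb outside. The nearest outside peaks of Per2 had signal values of 11.9 and 25.1, at 104 and 70.9 kb from its edges, and those of Dbp had 21.3 and 11.6, at 20.9 and 58.5 kb. Such a margin free of peaks was not particular to Per2 and Dbp, and the widest was the 177.5 kb above the Per1 window. Below the Bhlhe40 window the nearest peak had a signal value of 31.6, at 40.2 kb.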

How the data were processed

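Chromatin of MEFs was sequenced after precipitation with Foxk1 antibody (3 libraries) or IgG (3), or as input (2). Groups follow the antibody label, and for input the titles. Reads were aligned to mm9 with Bowtie, per the submitters' processing notes, and the track line names the list as Foxk1 against input. The peak caller, its settings and whether libraries were pooled before it ran are details not given in the sources used here. For each peak the authors deposited a score (the signal value) and a q-value on a linear scale. Depth is unknown, and no interval was computed.

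Window bounds were fixed by a rule; the members and lists were chosen with earlier results of these data known. Ranks ran over all peaks. Coordinates are 1-based. Background windows were tiled from the start of chromosomes 1 to 19 and X, full windows only. Gene order and promoters came from RefSeq (GRCm38.p6), and no coordinates were converted. The named genes were the 5 window genes with every peak, and other clock genes by motif count. Counting steps were tested on simulated lists. Alternatives covered window width, signal and q-value limits, merging, tiling and promoter length. Python 3.11.15, numpy 2.4.6, pandas 2.3.3 and matplotlib 3.10.9 were used.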

Additional observations from a re-analysis of the deposited data

How the results depend on the processing

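Counting any overlap of a peak with the window in place of its summit changed no count. Merging summits under 2000 bp apart left 7 regions at Per1, 4 at Per2, 7 at Nr1d1, 5 at Dbp and 4 at Bhlhe40. Per2, with 9 peaks before merging, then stood below Dbp and level with Bhlhe40. Peaks at or above the median signal numbered 9 of 11 at Per1, 5 of 9 at Per2 and 10 of 12 at Nr1d1. At Dbp they numbered 4 of 7 and at Bhlhe40 5 of 6, beside 50% of all peaks. A q-value of at most 0.001 left 10, 5, 10, 5 and 5 peaks in the same gene order, beside 51.3% of all peaks. Windows widened by their own width on both sides held 11 peaks at Dbp and 15 at Bhlhe40, with a highest signal value of 30.4 and 106 there; the highest peaks of Per1, Per2 and Nr1d1 stayed the highest. Ranked within its own chromosome, the top peak stood at 0.0951% for Per1 (against 0.0173% in the whole list) and 1.47% for Nr1d1 (against 0.892%). The share of tiled windows with at least as many peaks, among those with at least 1 peak, was 0.526% for Per1, 2.84% for Per2, 0.343% for Nr1d1, 3.2% for Dbp and 10.7% for Bhlhe40. Within the same chromosome it was 0.444%, 0.609%, 0.247%, 0.105% and 7.63% in that order. Other distances around the top summit, chosen after seeing the data, gave 2 other summits at Per1 and 0 at Bhlhe40 within 2000 bp, and 4 at Nr1d1 and 3 at Bhlhe40 within 10000 bp. Over the whole list, 4.71% of peaks had 2 or more within 2000 bp. Within 10000 bp, 3.82% had 4 or more, 9.92% had 3 or more, and the median was 1. The cause of the differences between settings was not tested, beyond the smaller or larger set each setting counts. The number of the 4 promoters with at least 1 match was the same for each motif with the 50 bases after the start included. Ranking by the score column was not run, since it holds 0 throughout. No paired analysis was possible because the peaks carry 1 value each and none per library, so no library could be left out either. With depth unknown, weak or missing peaks concern this threshold only.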
